A study of Bos grunniens with 18 samples.

Results

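The genes described here are the ZNF zinc finger genes of the yak (Bos grunniens) whose transcripts carried an m6A peak in the epididymis. N6-methyladenosine (m6A) is a methyl mark on adenosines inside messenger RNA. A gene was taken when its symbol started with ZNF in any letter case and when at least 1 peak in the authors' deposited comparison tables was listed under its identifier. The rule found 267 genes, out of 351 ZNF genes in the symbol table and out of 9629 genes with a peak in all. The members were thus chosen by the measured presence of a listed peak, so that presence is a description and was not tested.

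The tissue came from 6 healthy male yaks of 4 years, whose epididymis was divided into caput (head), corpus (body) and cauda (tail). Sperm leave the testis through this duct and mature along it. For each of the 3 regions there were 3 libraries enriched with an antibody against m6A (RIP) and 3 unenriched input libraries, 18 libraries in total. No treatment, genotype or strain is named in the labels, and none of them ties a library to an animal. For each region the authors deposited 1 list of candidate adenosines, and for each pair of regions 1 table that compares whole peaks. None of these files has a value per library, which leaves every value below without a replicate error and with unknown depth. The sources used here do not say whether the deposited folds are relative to input, so methylation and transcript abundance cannot be told apart in them. The tissue is bulk, so fewer cells of a type and less RNA per cell cannot be told apart either.

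Most ZNF genes encode proteins built from C2H2 zinc fingers, small folds that read DNA bases. In each, a zinc ion is held by a pair of cysteines and a pair of histidines. In most of these proteins many fingers stand in a row, each joined to the next by a short conserved linker. A finger with its linker covers 28 residues, or 84 bases at 3 bases per codon. A large share of the family also carries a KRAB domain, which recruits the scaffold TRIM28 and the histone methyltransferase SETDB1 to silence transposable elements and other targets. The family has grown by tandem duplication, and its genes stand in clusters on mammalian chromosomes. In human and mouse cells, m6A is added by a methyltransferase complex around METTL3 and METTL14, and it marks transcripts for changed turnover and translation, often within long internal exons and near stop codons.

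The descriptions in the files mostly matched the symbols, with exceptions. Of the 267 genes, 181 had a description, and 180 of these named a zinc finger protein. The number in the description was that of the symbol in 172 genes, and in 5 it was that of another zinc finger protein. ZNF875 was described as zinc finger protein 133, ZNF81 as 41, ZNF454 as 655, ZNF419 as 773 and ZNF705E as 596, so which gene these symbols name is uncertain. ZNF639 (ENSBGRG00000003142) was described as mitofusin 1. ZNFX1 was described as of the NFX1 type, ZNF259 as ZPR1 zinc finger, and Znf185 as having a LIM domain. Fingers were not counted, so not every member need be of the C2H2 kind. Gene ontology terms were present for 261 members. They included metal ion binding for 239, nucleus for 229, DNA binding for 212 and RNA binding for 6. There were 243 distinct symbols, because 20 symbols were carried by more than 1 gene. ZNF836 alone named 6 genes, and the spans of 2 of these overlapped on the minus strand of chromosome 20. Reads of such near copies may have been split or shared by the authors' alignment, so values of single ZNF836 genes are uncertain.

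Members were crowded on a few chromosomes of the authors' assembly, whose build the sources used here do not name. Chromosome 20 held 90 of the 267 ZNF genes (33.7%), against 5.40% of all genes with a peak. Chromosome 26 followed with 26 members and chromosome 8 with 21. Another member lay within 100 kb for 142 of the 267 genes (53.2%). On chromosome 20 this was true of 79 of 90 members, and on chromosome 8 of 8 of 21.

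ZNF genes were more often listed with a peak than genes at large. A peak was present for 76.1% of the 351 ZNF genes, against 51.1% of all genes in the symbol table. A high share was not particular to ZNF genes. Of a chosen list of BTB and SCAN zinc finger genes, 51 were in the symbol table and 46 had a peak. Of a chosen list of KRAB cofactor and heterochromatin genes, 29 were in it and 26 had one. The other 84 ZNF genes had no peak in any comparison table and are not described further. Of the members, 206 had peaks in all 3 tables, 49 in 2 tables and 12 in a single table, and these 12 are the genes that only just met the rule.

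Peaks of one gene that overlapped by at least 1 base across the tables were merged. A ZNF gene then had 2.07 ± 1.17 peaks (SD over 267 genes), against 1.90 in the other genes. The ZFP, ZBTB, ZSCAN, ZKSCAN and ZIM families had 2.06, and genes with other transcription factor terms had 2.20, so this number was not particular to ZNF genes. A single peak was found in 99 ZNF genes, 2 peaks in 94, 3 peaks in 50 and at least 4 peaks in 24. At least 2 peaks were present in 62.9% of ZNF genes and in 49.9% of the other genes. The share was 69.0% in those related families and 59.3% in genes with other transcription factor terms. ZNF292, a transcription factor gene mutated in human neurodevelopmental disorders, had the most with 8 merged peaks on the plus strand of chromosome 10 (26582283-26589198). Znf142 had 7 peaks. ZNF397, ZNF574, ZNF646 and Znf638 had 6 each, and 4 further genes (ZNF451, ZNF518A, ZNF592 and ZNFX1) tied at 5.

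The peaks of ZNF genes were long and mostly lay within 1 exon. Over the 3 tables, 1365 ZNF peaks had a median length of 395 bases of spliced sequence (interquartile range 241 to 689), against 251 bases for 39992 peaks of other genes. The difference was present in each table. The ZNF medians were 394 bases in corpus over caput, 392 in cauda over caput and 398.5 in cauda over corpus, with 251 bases for other genes in each. ZFP, ZBTB, ZSCAN, ZKSCAN and ZIM genes, the related zinc finger families, had a median of 348 bases, and genes with other transcription factor terms had 298. Peaks of at least 1000 bases made up 9.23% of ZNF peaks (95% Wilson interval 7.81 to 10.9) and 4.07% of peaks of other genes. A peak crossed a splice junction in 30.6% of ZNF peaks (28.2 to 33.1), against 59.3% in other genes. The related zinc finger families had nearly the same shares as ZNF genes. In them 9.17% of peaks had at least 1000 bases and 32.1% crossed a splice junction. Among peaks that crossed none, the ZNF median was still longer than that of other genes, 348 against 249 bases. Intervals cover counting only, and peaks of 1 gene or of the same span in several tables are not independent.

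**Figure D1:**
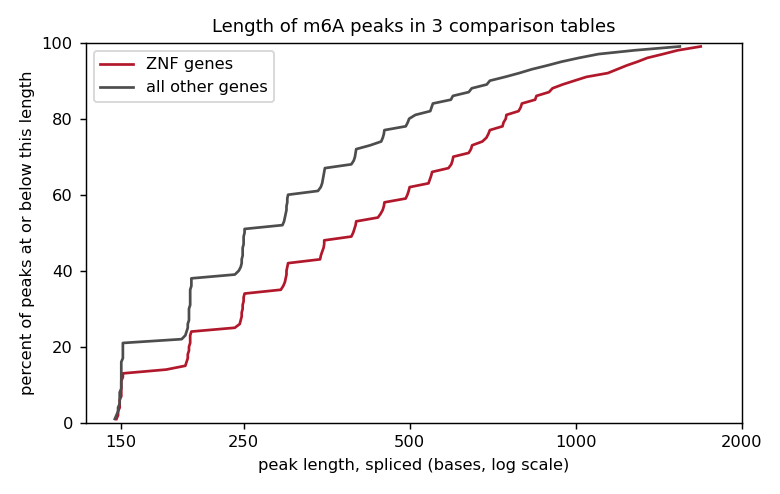
Share of peaks (percent, vertical axis) at or below a given spliced length (bases, horizontal axis on a log scale) in the 3 comparison tables together, for ZNF genes (red) and all other genes (grey). The ZNF curve lies to the right, with medians of 395 and 251 bases.

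The longest single peak belonged to ZNF609, with 2681 bases of spliced sequence in the authors' deposited table. Its product is tied to chromatin looping factors in mouse neural progenitors. Next came Znf638, whose product silences unintegrated retroviral DNA in human cells, with 2434 bases in the same authors' deposited table. ZNF445, a KRAB gene that takes part in genomic imprinting, had a peak of 2085 bases. ZNF318 reached 1993 bases and Znf608, the paralogue of ZNF609, reached 1936. These 5 peaks exceeded the 90th percentile of ZNF peaks, 995 bases. Where a gene had several unspliced merged peaks, the longest was the one nearest the 3′ end in 48 of 117 ZNF genes (41.0%, 32.5 to 50.1) and in 44.4% of 1540 other genes.

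Candidate adenosines inside ZNF peaks stood most often 84 bases apart, the length that encodes a finger with its linker. Where the fingers lie in these transcripts was not analysed here. The distance between every pair of candidates in the same unspliced merged peak was counted up to 400 bases, over 16431 pairs in 226 ZNF genes. The most frequent of all distances was 84 bases, with 320 pairs. The 6 distances on each side of it averaged 50.4 pairs (34 to 66), a ratio of 6.35. The multiples showed the same excess. There were 240 pairs at 168 bases against a flanking mean of 38.5, 167 at 252 bases against 30.9, and 145 at 336 bases against 23.2. Other genes with no zinc finger family symbol and no transcription factor term had 779 pairs at 84 bases, against a flanking mean of 656, a ratio of 1.19. Their most frequent distance was 6 bases. Genes with other transcription factor terms had a ratio of 1.27. The ZFP, ZBTB, ZSCAN, ZKSCAN and ZIM families lay between, with 21 pairs against 7.75 and a ratio of 2.71.

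**Figure D2:**
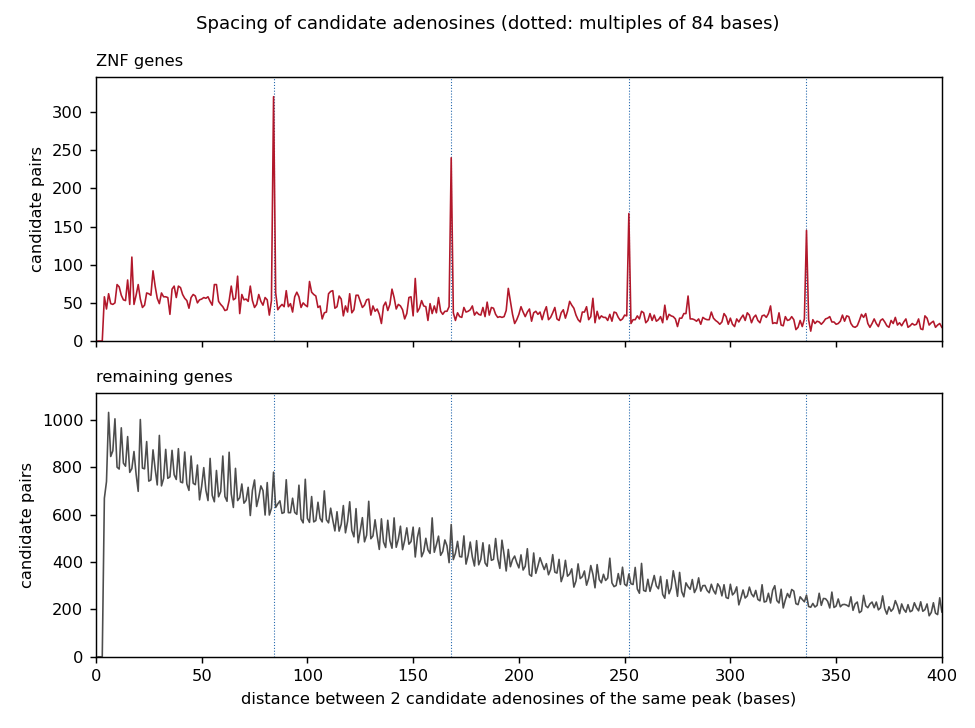
Number of candidate pairs (vertical axis) at each distance up to 400 bases (horizontal axis) within the same unspliced peak, for 226 ZNF genes (top) and for 4426 remaining genes (bottom). Dotted lines mark multiples of 84 bases, where ZNF genes show 320, 240, 167 and 145 pairs.

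The 84-base spacing was shared by many members and did not rest on a few. At least 1 pair at this distance was present in 99 of 226 ZNF genes (43.8%), against 598 of 4426 remaining genes (13.5%). Without the 5 genes with most such pairs the ratio was 5.41. Runs of at least 3 candidates in steps of 84 bases occurred in 35 of 226 ZNF genes (15.5%, 11.4 to 20.8) and in 19 of 4426 remaining genes (0.429%, 0.275 to 0.670). Runs of at least 4 occurred in 22 ZNF genes. The only gene outside the family with such a run was MAP1A, which encodes a microtubule-associated protein, with a run of 7. These counts describe where candidates stand in the transcript, not how strongly a site was methylated.

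The regular spacing also held among the candidates that the authors classed as m6A sites. The deposited lists give each candidate a prediction score and a class, and the lowest class began at a score of 0.557 (low confidence), followed by 0.584 (moderate), 0.620 (high) and 0.676 (very high). Between classed candidates of ZNF genes there were 47 pairs at 84 bases, against a flanking mean of 3.0, a ratio of 15.7. In all other genes there were 48 pairs against 38.7, a ratio of 1.24. Of the 526 ZNF candidates with a partner at 84 bases, 26.2% were classed as m6A sites (22.7 to 30.2). Of the 2837 candidates without one, 23.9% were classed (22.4 to 25.5), and these intervals overlap.

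Single genes show what the spacing looks like. ZNF189, a KRAB gene, had 1 peak of 1689 bases on the plus strand of chromosome 7 (28316093-28317781). It held 43 candidates, and 13 pairs of them were 84 bases apart. Cut into units of 84 bases, 12 of the 43 candidates fell on the same position of the unit and 8 on a second position. Of the 12, 2 were classed as m6A sites, with scores between 0.275 and 0.693, so the same position of the repeat did not bring the same score.

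ZNF226 had a peak of 1142 bases on the minus strand of chromosome 20 (63679481-63680622) with 21 candidates. Here 6 candidates stood in an unbroken run at the same position of the unit, and all 6 were classed, with scores between 0.604 and 0.700. The caput list held 0 of the 21, the corpus list 20 and the cauda list 18. The next peak of the gene did not share this: over the whole of ZNF226, the caput list held 16 candidates, the corpus list 35 and the cauda list 34. In the authors' deposited tables the 2 pieces of the run-bearing peak had log2 folds of 0.28 and 0.11 in corpus over caput, with adjusted p-values of 0.356 and 0.514, so no difference between those regions was called.

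ZNF160, on chromosome 20 (56217215-56218457, minus strand), had 10 of 26 candidates at 1 position, of which 7 were classed, with scores between 0.392 and 0.680. ZNF10 had 6 at 1 position with 5 classed. By contrast, ZNF248 on chromosome 27 had 7 of 30 candidates at 1 position and none of these was classed. ZNF677 had 10 of 23 candidates at 1 position with none classed. ZNF140 had 6 at 1 position and ZNF426 had 4, also with none classed. For the position counted, members differed in whether candidates were classed: all in ZNF226, most in ZNF160 and ZNF10, and 2 of 12 in ZNF189. In ZNF248, ZNF677, ZNF140 and ZNF426 none was. Positions of 1 gene differed too, so this split depends on the position read. ZNF10 had a second position with 6 candidates, most of them not classed. ZNF248 had a second position with 6, among them a classed candidate with a score of 0.655.

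**Figure D3:**
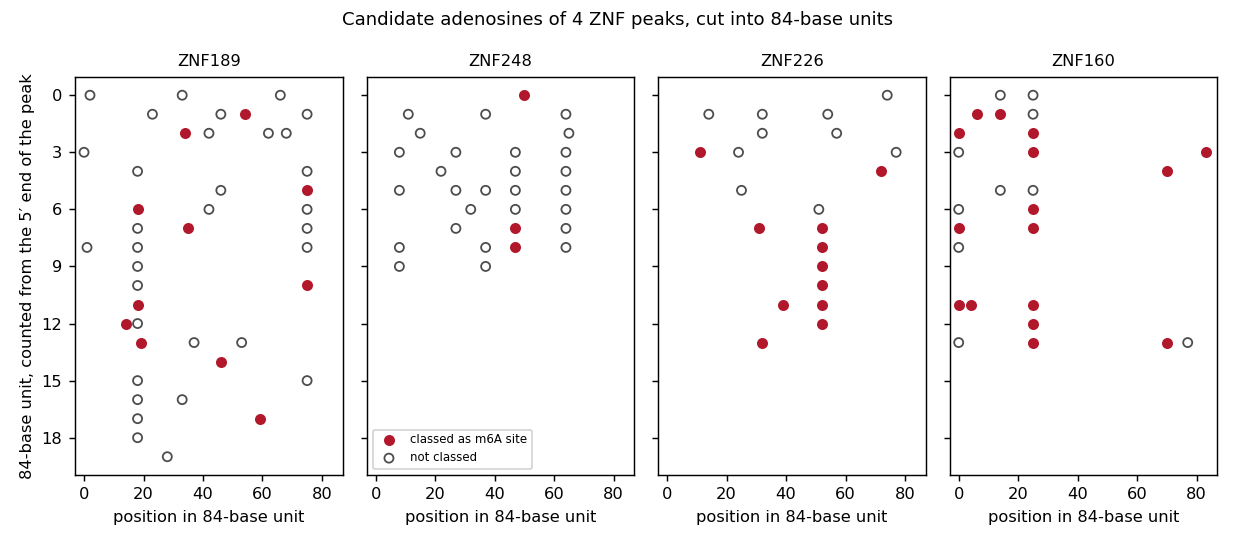
Candidate adenosines of 4 ZNF peaks, each cut into units of 84 bases: the horizontal axis is the position within the unit (bases) and the vertical axis the number of the unit from the 5′ end. Filled points were classed as m6A sites and open points were not; columns of points are candidates at the same position of successive units, as for the 12 of ZNF189 and the 6 of ZNF226.

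The members with the spacing also differed from the other members in further ways, given here as a description. The 99 genes with a pair at 84 bases had a median peak length of 446 bases, against 347.5 bases in the 168 members without one, a set that includes members with no pair to count. A splice junction was crossed by 17.9% of their peaks, against 40.8%. Pairs were counted only in unspliced peaks, so a lower share here is partly built in by the choice of genes. Chromosome 20 held 44.4% of them, against 27.4%. Their median number of candidates was 21, against 10, and a gene with more candidates has more pairs at any distance.

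Candidates of ZNF genes were classed as m6A sites somewhat more often than those of other genes. The peaks of ZNF genes held 5018 candidate positions in 264 genes, with a median of 14 per gene, against 9 in other genes. No candidate was listed for ZNF710, ZNF74 and ZNF829. Of the 5018, 1144 were classed (22.8%, 21.7 to 24.0), against 18.6% of 115697 candidates of other genes (18.4 to 18.9). The related zinc finger families stood between, at 20.4%, while genes with other transcription factor terms had 18.2%. Very high confidence was given to 140 ZNF candidates (2.79%, 2.37 to 3.28), against 1.96% in other genes (1.88 to 2.04). The share was 2.50% in the related families (1.73 to 3.62) and 2.41% in genes with other transcription factor terms (2.07 to 2.80). Both of these intervals overlap that of ZNF genes. The median score was 0.455 in ZNF genes and 0.440 in other genes. The difference varied with the length of unspliced peaks. In peaks of at most 250 bases 19.4% of ZNF candidates were classed (16.0 to 23.3), against 20.7% in other genes (20.0 to 21.4), and at 251 to 500 bases 145 of 581 ZNF candidates were (interval of the share 21.6 to 28.6%), against 21.6% in other genes (21.0 to 22.3). The intervals overlap in both of these classes. In peaks of 501 to 1000 bases the shares were 25.2% in ZNF genes (23.0 to 27.5) and 21.0% in other genes (20.3 to 21.8), and above 1000 bases they were 24.9% (22.2 to 27.8) and 20.3% (19.4 to 21.3). Candidates did not stand closer together, since unspliced peaks held 16.0 per kb in ZNF genes and 16.7 in other genes.

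ZNF800 had the most candidates of very high confidence, 10 of 53, and among them a best score of 0.867. This gene restrains enteroendocrine differentiation in human intestinal organoids. ZNF292 followed with 8 of 139 candidates and a best score of 0.744. The single peak of ZNF189 held 5. ZNF256 and ZNF318 had 4 each, of 77 and 131 candidates. Further genes were tied at 3, among them ZNF132, ZNF214, ZNF558, ZNF565, ZNF572 and ZNF639.

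The score could not be used to compare regions. Of the 5018 positions, 4216 were listed in more than 1 region and 0 of these differed in score between lists. What differed between regions was only whether a position was listed.

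By that measure most ZNF genes were listed along the whole duct. At least 1 candidate was listed in caput, corpus and cauda for 220 of 264 ZNF genes (83.3%, 78.4 to 87.3), against 69.5% of other genes (68.5 to 70.4). ZNF genes had more candidates per gene (median of 14 against 9), and a gene with more candidates is more likely to have 1 in every list. By position, 59.4% of ZNF candidates were listed in all 3 regions (58.1 to 60.8), against 52.4% in other genes (52.1 to 52.6). The related zinc finger families had 55.3% (52.3 to 58.3) and genes with other transcription factor terms 57.5% (56.3 to 58.7), with intervals that overlap that of ZNF genes. Candidates listed in a single region were 16.0% in ZNF genes (15.0 to 17.0) and 23.4% in other genes (23.2 to 23.6). They were 16.8% in the related families (14.7 to 19.1) and 21.5% in genes with other transcription factor terms (20.6 to 22.5). The share listed in all 3 regions was larger in longer peaks in both sets. In peaks of at most 250 bases it was 29.5% in ZNF genes (25.5 to 33.9) and 28.1% in other genes (27.3 to 28.9). Above 1000 bases it was 71.7% (68.7 to 74.6) and 69.9% (68.8 to 71.0), and the intervals overlap in both of these classes. Only in peaks of 251 to 500 bases was the ZNF share lower, with 41.7% (37.7 to 45.7) against 51.8% (51.0 to 52.7).

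The regions were close in the number of candidates, and less so in positions of their own. The caput list held 4104 candidates in 248 ZNF genes, the corpus list 4002 in 242 and the cauda list 4110 in 242. The share classed was 23.0% in the caput, 23.0% in the corpus and 23.2% in the cauda. Positions listed in no other region were 343 in the caput (8.36%), 207 in the corpus (5.17%) and 252 in the cauda (6.13%). In other genes these shares were 10.8%, 9.34% and 10.6%.

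A few genes were listed in 1 region only. There were 16 of them (6.06%), against 14.0% of other genes. Of these, 10 were caput genes, 2 corpus genes and 4 cauda genes. Both copies of ZNF280B on the Y chromosome were caput genes, with 22 candidates in the copy at 19222877-19223862 and 19 in the copy at 19354972-19355763. Of these, 4 and 6 were classed. A gene named ZNF33B on chromosome 20 had 5 candidates, all in the caput. ZNF404, also on chromosome 20, had 10 candidates in the corpus, 5 of them classed. ZNF709 on chromosome 8 had 9 candidates in the cauda, with a best score of 0.806, and 3 of its pairs were 84 bases apart. ZNF521, which keeps progenitor cells undifferentiated in human and mouse blood and mesenchyme, had 5 candidates in the cauda. The other single-region genes had at most 3 candidates.

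Being listed in 1 region did not go with a called difference. In the authors' deposited tables the lowest adjusted p-value of any peak was 0.346 and 0.863 for the 2 copies of ZNF280B, 0.124 for ZNF33B, 0.232 for ZNF404, 0.372 for ZNF709 and 0.630 for ZNF521. Genes missing from 1 list included ZNF750, a regulator of epidermal differentiation, with 0 candidates in the caput list and 16 in each of the others. ZNF667 had 12 candidates in each of the caput and cauda lists and 0 in the corpus list, and 8 of its pairs were 84 bases apart. ZNF783 had 3, 0 and 12.

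The authors' comparison tables give the differences between regions as a fold per peak with a p-value. The question of these comparisons was how m6A changes along the duct. Folds are of the first-named region over the second. Among unspliced ZNF peaks with candidates listed in the first region and not in the second, the median log2 fold in the authors' deposited tables was 0.38 in corpus over caput, 0.44 in cauda over caput and 0.58 in cauda over corpus. Over all genes the same choice of peaks gave 0.32, 0.39 and 0.40 in the authors' deposited tables. Among the reverse ZNF peaks it was -0.42, -0.28 and -0.35, against -0.38, -0.27 and -0.30 over all genes. Listing and fold come from the same libraries, so the sign of these medians is no separate evidence of a difference. The 3 comparisons share regions, so they are not independent.

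Few ZNF peaks passed an adjusted p of 0.05. In corpus over caput, 11 of 461 ZNF peaks passed (2.39%), against 2.98% of all peaks of that authors' deposited table. Of these, 6 were higher in the corpus (1.12% of all peaks were) and 5 lower (1.86% of all). In cauda over caput, 6 of 454 passed (1.32%), against 2.27% of all peaks, 5 higher (1.41% of all) and 1 lower (0.861% of all). In cauda over corpus, 10 of 450 passed (2.22%), against 1.96% of all peaks, 8 higher (1.24% of all) and 2 lower (0.719% of all). These shares were close to those of the whole tables. At an unadjusted p below 0.05, 33 ZNF peaks were higher in corpus over caput (7.21% of all peaks were) and 43 lower (9.24% of all). In cauda over caput 45 were higher (10.5% of all) and 21 lower (6.68% of all), and in cauda over corpus 39 were higher (9.71% of all) and 24 lower (6.68% of all). The 27 called peaks belonged to 21 ZNF genes, which is 7.87% of members, against 7.98% of all genes with a peak. They were long, with a median of 798 bases, against 301 bases over all 1006 called peaks, and 19 of the 27 had at least 500 bases. Only 1 of them changed by 2-fold or more.

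The folds of ZNF peaks as a whole were small. Their median log2 fold was -0.08 in corpus over caput (95% interval of the median -0.11 to -0.02), against -0.02 over all peaks. It was 0.09 in cauda over caput (0.04 to 0.13), against 0.04, and 0.09 in cauda over corpus (0.06 to 0.13), against 0.05. Fewer ZNF peaks were above 0 than not in corpus over caput (199 of 461), and more were in cauda over caput (259 of 454) and cauda over corpus (275 of 450). These are 43.2%, 57.0% and 61.1% of ZNF peaks, against 47.5%, 54.9% and 55.8% of all peaks. The spread was far wider than these medians: the middle 80% of ZNF peaks ran between -0.53 and 0.39 in corpus over caput.

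**Figure D4:**
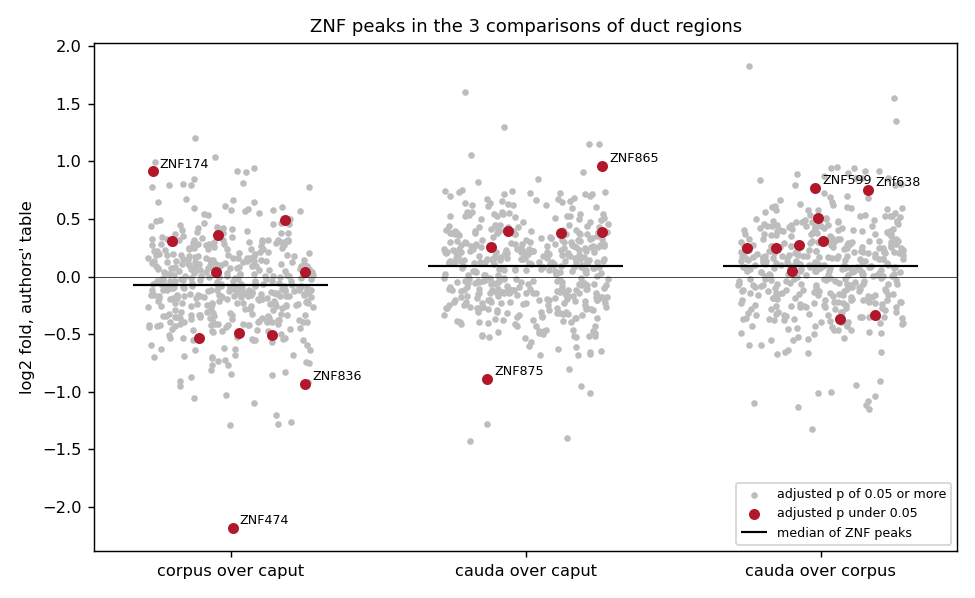
Log2 fold of every ZNF peak in the authors' 3 comparisons (461, 454 and 450 peaks; vertical axis), one column of points per comparison with random sideways spread. Red points passed an adjusted p of 0.05 (11, 6 and 10 peaks), black lines are medians of ZNF peaks (-0.08, 0.09 and 0.09), and the called peaks with an absolute log2 fold above 0.7 are named.

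ZNF474 had the lowest fold of all ZNF peaks. It encodes a zinc finger protein named in mouse for its expression in the testis. Its transcript had 18 candidates, of which 18 were listed in the caput, 2 in the corpus and 0 in the cauda. A peak of 197 bases at its 5′ side (chromosome 8, 34014560-34014756, minus strand) had 0 candidates in the corpus list and 5 in the caput list. For this peak the authors' deposited table gives a log2 fold of -2.18 in corpus over caput. Its p-value is listed there as 0, which may be a placeholder, and without such entries the count of lower ZNF peaks in that comparison was 4. The second peak, spliced and of 686 bases (33985157-34014364), had 2 candidates in the corpus list and 13 in the caput list. In the authors' deposited table it had a log2 fold of 0.04 with an adjusted p = 6.92e-05, so it passed the threshold with hardly any fold. Peaks in the same span had log2 folds of -0.10 in cauda over caput (adjusted p = 0.971) and -0.40 in cauda over corpus (adjusted p = 0.746) in the authors' deposited tables, although no candidate of the gene was listed in the cauda. The 5′ peak was not listed in the comparisons with the cauda.

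**Figure D5:**
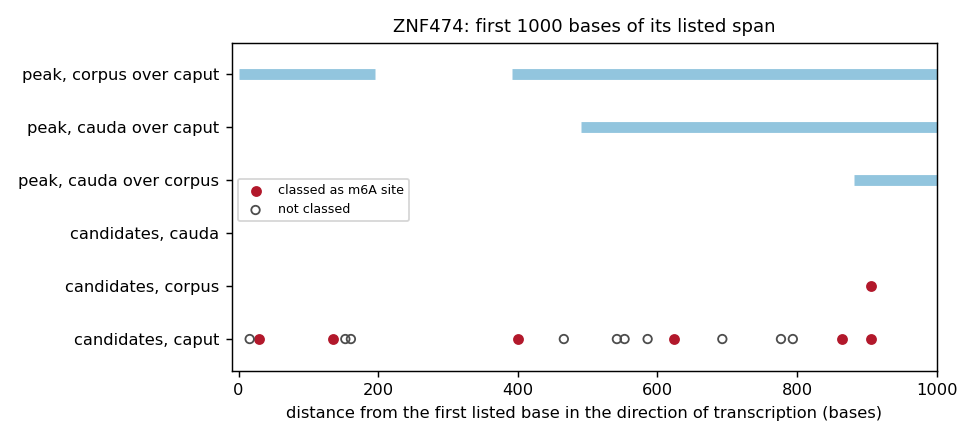
The first 1000 bases of the ZNF474 span in the direction of transcription (horizontal axis, distance in bases from the first listed base). Bars are peaks in each comparison, and points are candidate adenosines listed in the cauda, corpus and caput, filled where classed as m6A sites; the caput list holds 16 candidates here, the corpus list 1 and the cauda list none.

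The gene with the largest called rise was ZNF865, and it rose in the cauda. Its peak of 296 bases on chromosome 20 had 2 candidates in the cauda and none in the caput. The authors' deposited table gives it a log2 fold of 0.96 in cauda over caput with an adjusted p = 0.018. In cauda over corpus the overlapping peak had 0.48 with an adjusted p = 0.511, according to the authors' deposited table. The largest rise in the corpus was that of ZNF174, which carries a SCAN domain. Its short peak of 149 bases was assigned no candidate. In the authors' deposited table this peak had a log2 fold of 0.91 in corpus over caput with an adjusted p = 0.036. Another peak of the gene, of 693 bases, had 0.31 in cauda over corpus with an adjusted p = 0.046, according to the authors' deposited table.

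The gene with the symbol ZNF875, whose description names zinc finger protein 133, had the 1 peak that fell in the cauda against the caput. It had 0 candidates in the cauda list and 3 in the caput list, and the authors' deposited table gives a log2 fold of -0.89 with an adjusted p = 0.024. One ZNF836 gene had a peak of 251 bases with 0 candidates in the corpus and 5 in the caput. It fell in the corpus, with a log2 fold of -0.93 and an adjusted p = 0.011, according to the authors' deposited table. Its value in cauda over caput was -0.67 with an adjusted p = 0.085, according to the authors' deposited table.

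Some genes were called in more than 1 comparison. There were 5 of them. Znf638 stood low in the corpus: the authors' deposited tables give the same spliced peak (299 and 249 bases) log2 folds of -0.53 in corpus over caput (adjusted p = 0.023) and 0.75 in cauda over corpus (adjusted p = 0.018). Candidates for that peak were listed in all 3 regions, 4 in the caput and 3 in each of the others. Znf608 rose in the corpus (0.31, adjusted p = 0.0055) and in the cauda (0.38, adjusted p = 0.038) against the caput in the authors' deposited tables. ZNF786 rose in the cauda against the caput (0.40, adjusted p = 0.0068) and against the corpus (0.25, adjusted p = 0.025), according to the authors' deposited tables. ZNF131, which also carries a BTB domain, passed in corpus over caput with a log2 fold of 0.04 (adjusted p = 0.030) and in cauda over caput with 0.25 (adjusted p = 0.0071), according to the authors' deposited tables. ZNF174, above, was called at 2 different peaks.

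The remaining called peaks were of moderate fold. ZNF12, a KRAB gene, rose in the corpus with 17 candidates listed there and 8 in the caput (log2 fold of 0.49, adjusted p = 0.030, as given in the authors' deposited table). ZNF462, a regulator of chromatin in vertebrate embryos, fell in the corpus with 18 candidates there and 28 in the caput (-0.51, adjusted p = 0.039, as given in the authors' deposited table). ZNF572 rose (0.36, adjusted p = 0.030) and ZNF674 fell (-0.49, adjusted p = 0.031) in corpus over caput in the authors' deposited table. ZNF23 rose in cauda over caput as a peak of 1745 bases with 19 candidates in the cauda and 7 in the caput (0.39, adjusted p = 0.049, as given in the authors' deposited table). Within the same span, a piece of 400 bases had -1.28 in corpus over caput with an adjusted p = 0.091, according to the authors' deposited table.

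In cauda over corpus the authors' deposited table called ZNF599 (0.77, adjusted p = 0.0074) and ZNF79 (0.51, adjusted p = 0.0091) higher. The long peak of ZNF189 with the 84-base repeats also rose there (0.28, adjusted p = 0.048, as given in the authors' deposited table), with 43 candidates in the cauda and 40 in the corpus. ZNF358 rose by a log2 fold of 0.25 (adjusted p = 0.023, as given in the authors' deposited table). ZNF792 (-0.33, adjusted p = 0.028) and ZNF311 (-0.37, adjusted p = 0.038) fell in the authors' deposited table. The 2085-base peak of ZNF445 passed with a log2 fold of 0.05 (adjusted p = 0.010, as given in the authors' deposited table), so that 3 of the 27 called peaks had an absolute log2 fold below 0.1. Over all genes, 50 of 1006 called peaks did.

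Apart from that of ZNF474, the largest folds were found in peaks that did not pass the adjusted threshold. Among peaks with an unadjusted p below 0.05, the authors' deposited tables give ZNF333 the highest log2 fold in corpus over caput (1.04, adjusted p = 0.1), with 4 candidates in the corpus and 0 in the caput. In cauda over caput it was ZNF239 (1.60, adjusted p = 0.240), and in cauda over corpus ZNF471 (1.35, adjusted p = 0.109), according to the authors' deposited tables. The ZNF471 peak had 6 candidates in the cauda and 0 in the corpus. Low values in cauda over caput were those of a ZNF292 peak (-1.43, adjusted p = 0.190), ZNF407 (-1.40, adjusted p = 0.269) and ZNF426 (-1.28, adjusted p = 0.166), according to the authors' deposited tables. ZNF426 was also low in corpus over caput (-1.20, adjusted p = 0.177), with 3 candidates of that peak in the corpus and 10 in the caput, in the authors' deposited tables. ZNF404 had -1.13 in cauda over corpus (adjusted p = 0.232, as given in the authors' deposited table), and its candidates were listed in the corpus alone. These peaks were short, between 148 and 299 bases, and none counts as changed.

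Members known for particular roles were examined as lists. Of 25 chromatin and promoter regulators named ZNF, 22 had a peak. In the authors' deposited tables, Znf608 rose and ZNF462 fell among their 66 peaks in corpus over caput, Znf608 rose among 61 in cauda over caput, and 0 of 56 passed in cauda over corpus. That is 2, 1 and 0 peaks, where 2.98, 2.27 and 1.96% of all peaks passed. Of the 56, 3 had an unadjusted p below 0.05 and were higher (9.71% of all peaks were), and 4 were lower (6.68% of all). Of 19 developmental regulators, 13 had a peak, and 0 of 23, 0 of 22 and 0 of 22 peaks passed in the 3 comparisons. At an unadjusted p below 0.05, 1, 2 and 1 of them did, against 16.4, 17.2 and 16.4% of all peaks. ZNF703, a regulator of luminal epithelium, had a log2 fold of 0.33 in cauda over corpus with an adjusted p = 0.213, according to the authors' deposited table. Of 21 ZNF genes with roles outside transcription, 16 had a peak, and their called peaks were the 2 of ZNF474 and those of Znf638, 3 of 36 in corpus over caput and 1 of 32 in cauda over corpus (2.98 and 1.96% of all peaks). In cauda over caput 0 of their 36 peaks passed (2.27% of all did). At an unadjusted p below 0.05, 1 was higher (10.5% of all peaks were) and 1 lower (6.68% of all). ZNFX1, an antiviral sensor of RNA, had -0.45 in corpus over caput with an adjusted p = 0.255, and ZNF598, which ubiquitinates stalled ribosomes, had -0.42 with an adjusted p = 0.308, according to the authors' deposited table.

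A further list held cofactor genes of KRAB zinc finger proteins together with other heterochromatin genes, so not every gene in it is a KRAB cofactor. Of its 30 genes, 26 had a peak. In corpus over caput, 1 of their 60 peaks rose (1.12% of all peaks did) and 3 fell (1.86% of all). TASOR, a subunit of the HUSH silencing complex, rose (log2 fold of 0.69, adjusted p = 0.0055), while MORC2, an ATPase that works with that complex, fell (-1.16, adjusted p = 0.043), according to the authors' deposited table. UHRF1, which maintains DNA methylation, fell (-0.64, adjusted p = 0.023), as did the heterochromatin protein gene CBX3 (-0.21, adjusted p = 0.014), according to the authors' deposited table. In cauda over caput 2 of 58 peaks fell (0.861% of all peaks did). These were a peak of SETDB1 (-1.07, adjusted p = 0.017) and one of CBX3 (-0.33, adjusted p = 0.0091), according to the authors' deposited table. In cauda over corpus 0 of 61 peaks passed (1.96% of all did). At an unadjusted p below 0.05, 4 were higher (9.71% of all peaks were) and 1 lower (6.68% of all). The list's median log2 fold was -0.03 in corpus over caput, against -0.02 over all peaks, 0.03 in cauda over caput, against 0.04, and 0.00097 in cauda over corpus, against 0.05.

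Of 57 genes of the BTB and SCAN zinc finger families, 46 had a peak. ZBTB47 rose in corpus over caput (0.86, adjusted p = 0.0089) and fell in cauda over corpus (-0.67, adjusted p = 0.011), according to the authors' deposited tables. ZBTB38, which binds methylated DNA, fell in corpus over caput (-0.15, adjusted p = 0.021, as given in the authors' deposited table). No other peak of this list passed among 75 in corpus over caput and 77 in cauda over corpus, where 2.98 and 1.96% of all peaks passed. In cauda over caput 0 of 72 passed (2.27% of all did). At an unadjusted p below 0.05, 3 were higher (10.5% of all peaks were) and 3 lower (6.68% of all).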

How the data were processed

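Poly(A) RNA of caput, corpus and cauda was fragmented, enriched with an m6A antibody and sequenced, per the labels' protocols. The submitters' processing notes name HISAT2, Trimmomatic and deepTools. For the build, the peak calls, the site prediction and the test between regions, no tool or version is given in the sources used here.

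Per the file headers, the deposited candidate lists give each adenosine a score and a class. Per the file headers, the authors' comparison tables give a p-value, an adjusted p-value, a ratio (fold) and its log2 value per peak. These values were used as deposited, with no test added. The 9 columns of the expression table whose codes match no label were used in no step; only its symbols, descriptions and ontology terms were taken.

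Members and gene lists were chosen with earlier results of these data known. Each candidate position was counted once and assigned to a gene through the span of that gene's peaks (intervaltree 3.1.0), and positions in the spans of more than 1 gene were left out. Intervals of shares are 95% Wilson intervals (statsmodels 0.14.6), and those of medians come from binomial ranks. Spacing was counted within unspliced merged peaks, and the counting was tested on simulated data. Coordinates count from 1. Motifs, proteins and positions within exons were not analysed here. Genes were named by rule: every called ZNF peak, the 5 highest and 5 lowest log2 folds per comparison at an unadjusted p under 0.05, the genes with most peaks, longest peaks or most candidates of very high confidence, genes with at least 5 candidates in a single region, and list genes by lowest p. Not every gene the rule allows is printed. The spacing analysis, the genes shown for it, MAP1A and the genes missing from 1 region were chosen after their values were seen.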

Additional observations from a re-analysis of the deposited data

How the results depend on the processing

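No paired analysis was possible because the files give no values per library. Under the alternatives tried, 46 values stayed within 1.5 times the value as reported (counts) or inside its 95% interval (medians, means, shares and ratios), and 22 did not. No median log2 fold changed sign. With an unadjusted p under 0.05, 33 ZNF peaks were higher and 43 lower in corpus over caput, 45 higher and 21 lower in cauda over caput, and 39 higher and 24 lower in cauda over corpus. Requiring a 2-fold difference as well left 0 higher and 1 lower in corpus over caput, 0 and 0 in cauda over caput, and 0 and 0 in cauda over corpus. In corpus over caput the balance thus turned, since 6 were higher and 5 lower at an adjusted p under 0.05. Median peak length over the genomic span was 518, 500 and 594.5 bases in these comparisons. With 1 peak per gene, the median log2 fold in cauda over corpus was 0.14. Merged peaks per gene were 2.62 when merging needed a reciprocal overlap of 50%, and 1.88 per table. The share of ZNF candidates classed was 10.1% for high and very high confidence alone and 24.3% in unspliced peaks. The ratio at 84 bases was 15.7 for classed candidates and 5.41 without the 5 genes with most such pairs; the alternatives for this ratio and the unspliced share were chosen after seeing the data. The causes were not tested, beyond what each alternative leaves out or adds by its construction. Motif, exon-block and protein alternatives were not run. Depth per peak is unknown, so small folds cannot be weighed against counting error, and leaving out replicates was not possible.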

Other observations

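In other transcription factor genes the most frequent distance between candidates was 27 bases, and 51 of 283 such genes (18.0%) had a pair at 84 bases. Of 58 genes of the ZFP, ZBTB, ZSCAN, ZKSCAN and ZIM families, 12 (20.7%) had one, and 84 bases was their most frequent distance too. ZNF836 (ENSBGRG00000015904), one of the 6 genes of that symbol, had 7 pairs at 84 bases, while 2 others of that name had none.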
